A study of Homo sapiens with 9 samples.

Results

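The 10 genes described here mark the identity of breast epithelial cells and were followed over 9 Affymetrix Human Gene 1.0 ST arrays: the luminal transcription factors GATA3, FOXA1 and SPDEF, the hormone receptors ESR1 and PGR, the basal transcription factor TP63, and 4 neighbours of ERBB2 on chromosome 17, namely STARD3, PGAP3, MIEN1 and GRB7. A gene was read from the probe set to which the array annotation gives its symbol alone, and from the brightest one by the mean over the arrays where there were several. By this rule 9 of the 10 genes had a value among 18417 genes measured on 33297 probe sets, and TP63 had none. Every array is labelled as total RNA of SK-BR-3, a human breast adenocarcinoma cell line that the labels call luminal-like. The study asked how stable overexpression of either isoform of TFPI, an inhibitor of the tissue factor pathway of blood coagulation, affects gene expression in these cells. The pool labelled TFPIα carried the cDNA of the secreted isoform, the pool labelled TFPIβ carried that of the isoform anchored to the cell surface, and the empty vector pool carried pcDNA3.1/V5/His-pTOPO without an insert. All 3 pools were selected with an antibiotic, given as puromycin in the labels and as neomycin in the methods, and were grown in RPMI1640 medium with serum. Each group had 3 arrays from separate RNA isolations of 1 pool, so p-values measure the spread between isolations and not between independent transfections.

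SK-BR-3 is known as a line with many copies of ERBB2 and high ERBB2 expression, as negative for the estrogen and progesterone receptors, and as positive for luminal epithelial factors. The 9 arrays went against that description in part. TFPI itself had log2 signals of 5.66, 5.81 and 5.51 on the arrays labelled TFPIα and of 5.55, 5.79 and 5.81 on those labelled TFPIβ, against 5.81, 6.48 and 6.45 on those labelled empty vector. The transfected cDNAs hold only the coding region, and the study attributes the lack of an increase of TFPI on its arrays to probes that read the untranslated ends. With another summary, which leaves out probes of low signal, the study reports an increase of TFPI. The signals used here are per probe set and cannot be split into probes. They therefore check no label, and the groups below are named by their labels. Of 22 genes of basal epithelial cells 16 were measured, and their median percentile among all genes of an array was 93.1, while the 26 measured of 27 luminal genes had a median percentile of 41.9. Of markers of other cells, 1 of 5 measured blood cell genes, 1 of 5 endothelial genes, 2 of 5 melanocyte genes and 8 of 14 mesenchymal genes stood above the level of olfactory receptors, defined below, on every array. Of all genes 65.6% did, and each of these lists was below that share. Arrays of 1 group had Pearson correlations of 0.953 to 0.990 over the 17482 probe sets that reached a log2 signal of 5 on some array.

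In the mammary gland, luminal cells line the ducts and basal cells lie beneath them on the basement membrane. GATA3 and FOXA1 open and hold the chromatin at which the estrogen receptor binds in luminal cells, and p63, the product of TP63, keeps up the keratin and adhesion program of basal cells. In ERBB2-amplified breast cancers a stretch of chromosome 17 is copied many times, and the neighbours of ERBB2 are copied and transcribed with it.

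RefSeq gave promoters, from 250 bases before to 50 after the start site on GRCh38.p14, for 9 of the 10 genes at 21 start sites. The sequences below are shown because 4 genes share a motif there, and because these are the 4 brightest of the 8 genes that had both a promoter and a signal. The motif was chosen after the signals had been seen. The windows are 30 bases long and are read 5′ to 3′ on the strand of the gene, with the letters CCGGAAG in capitals, the core motif of ETS factors, a large family of transcription factors that bind many promoters active in all cells.
STARD3, chr17:39637124-39637153, plus strand: aagtggcgctgCCGGAAGatcttcttccgc
PGAP3, chr17:39688056-39688085, minus strand: ttccggttactCCGGAAGtggaagcttcat
MIEN1, chr17:39730510-39730539, minus strand: tcgcgtcacacCCGGAAGcaggggcccgag
GATA3, chr10:8045256-8045285, plus strand, at 1 of its 6 start sites: ctcttcgcaacCCGGAAGagctccgctctc
The motif, searched on both strands, stood 9 bases before the start site of STARD3, 17 before that of PGAP3 and 4 after that of MIEN1. PGAP3 held it a second time, on the opposite strand and 29 bases before its start site. It was found in none of the windows of FOXA1, ESR1, PGR, SPDEF and TP63. For TP63 only 1 window, chr3:189631139-189631438, was searched, and any other start site of that gene was not. Over all RefSeq promoters of this length 10.3% held it, and the 2396 measured genes with it had a median percentile of 70.3, against 48.4 for the 11843 measured genes without it. Of 4 other motifs searched on both strands, TATAAA, the TATA box letters, matched in TP63 and GATA3 and in 11.5% of all promoters. In both genes the match was on the opposite strand, 44 bases after the start site in TP63 and before it in GATA3. TGTTTAC of FOXA factors was found in PGAP3 and in 3.42% of all promoters. AGGTCA, the core letters bound by the estrogen receptor, was found in MIEN1 and in 13.8%. AGATAA of GATA factors was found in none of the genes and in 10.3% of all promoters. These shares are of single promoters, while a gene can have several. By gene, the share with a match was 12.2% for CCGGAAG, 14.0% for TATAAA, 4.19% for TGTTTAC, 16.5% for AGGTCA and 12.4% for AGATAA. A match of letters is not a binding site.

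Signals are log2 values, so that a difference of 1 is a doubling. Probe sets differ in how well they bind, and signals of different genes are therefore not comparable as amounts, which limits every rank. To read low signals, the 341 olfactory receptor genes on the arrays served as a level of unspecific signal, since these receptors have little or no expression outside the nose. Their median lay between 2.82 and 3.02 and their 95th percentile between 4.06 and 4.28, depending on the array. Of the 9 measured genes 6 were above that 95th percentile on all 9 arrays, namely GATA3, FOXA1, STARD3, PGAP3, MIEN1 and GRB7, whereas 65.6% of all 18417 genes were. The share of the identity genes is close to that of all genes. SPDEF was above it on 8 arrays, and ESR1 and PGR on none.

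**Figure D1:**
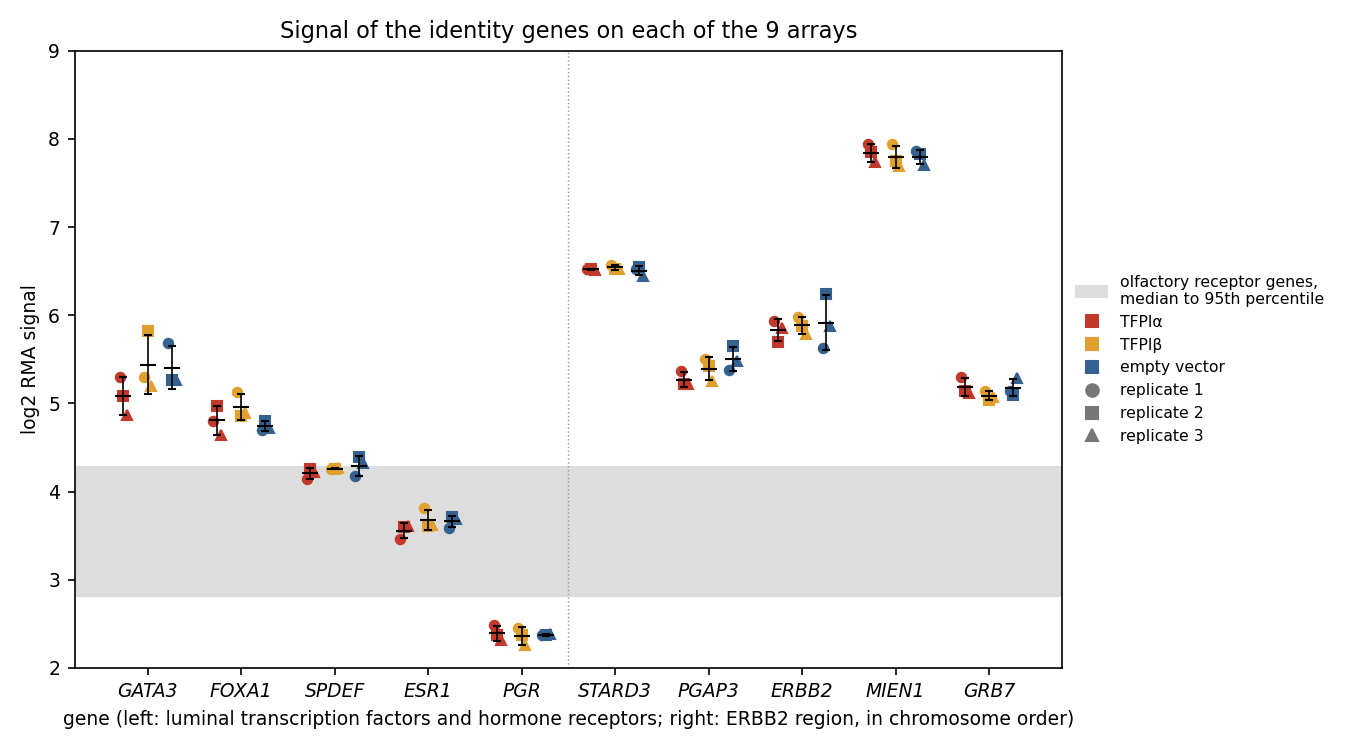
Log2 signal (vertical axis) of the 9 measured identity genes and of ERBB2 (horizontal axis) on each array. Colours give the group of the label, symbols the replicate number, horizontal bars the group mean, and error bars 1 SD (n = 3). The grey band runs from the lowest median, 2.82, to the highest 95th percentile, 4.28, of the olfactory receptor genes over the arrays. ESR1 lies within the band and PGR below it, MIEN1 lies highest, and the groups lie close together for every gene.

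Among the luminal transcription factors GATA3 was the brightest. Its log2 signals were 5.30, 5.08 and 4.86 with TFPIα, 5.30, 5.82 and 5.19 with TFPIβ, and 5.69, 5.26 and 5.26 with empty vector. The groups overlapped, and over all 9 arrays GATA3 averaged 5.31 ± 0.29 (SD, n = 9), at percentile 49.3, in the middle of the genes of an array. FOXA1, a pioneer factor that GATA3 works with in luminal cells, had 4.81, 4.97 and 4.64 with TFPIα, 5.13, 4.85 and 4.89 with TFPIβ, and 4.70, 4.80 and 4.72 with empty vector. It reached a log2 signal of 5, the level that the methods asked of an expressed gene, on a single array, that of TFPIβ replicate 1, and its mean percentile was 41.0. SPDEF, an ETS factor of luminal and secretory cells, was dimmer still, with 4.14, 4.26 and 4.22 with TFPIα, 4.26, 4.26 and 4.27 with TFPIβ, and 4.17, 4.39 and 4.32 with empty vector. These values lie at the upper edge of the olfactory receptors, and SPDEF stayed under a signal of 5 on every array. None of the 3 factors, which are known as abundant in luminal breast cancer cells, ranked among the brighter genes.

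The hormone receptors had the lowest signals of the 9 genes. ESR1, the estrogen receptor α, had log2 signals of 3.46, 3.60 and 3.61 with TFPIα, 3.81, 3.61 and 3.62 with TFPIβ, and 3.59, 3.71 and 3.69 with empty vector, and a second probe set of the gene averaged 3.58 over the 9 arrays. PGR, the progesterone receptor and itself a target of the estrogen receptor, had 2.48, 2.37 and 2.32 with TFPIα, 2.45, 2.37 and 2.26 with TFPIβ, and 2.37, 2.37 and 2.38 with empty vector. ESR1 was above the median of the olfactory receptors and below their 95th percentile on all 9 arrays, and PGR was below even their median on all 9. ESR1 ranked between 14305 and 15123 and PGR between 17299 and 17626 of 18417 genes. On both receptors the arrays matched what is known of SK-BR-3, a line negative for both. Low signals of these 2 genes do not identify the line, and ERBB2, known as high in it, was at percentile 59.1. Of 16 target genes of the estrogen receptor 13 were measured, with a median percentile of 52.9. Of these 9 were above the olfactory level on all arrays, beside 65.6% of all genes. CA12, a carbonic anhydrase, and CCND1, the cell cycle regulator cyclin D1, were the brightest of them at means of 8.80 and 8.20, and MYB and NAT1 the dimmest at 2.87 and 2.80. CA12 and CCND1 are also expressed in cells without the receptor.

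TP63 could not be read, but 19 of 20 target genes of p63 were measured, and these had a median percentile of 82.4 with 15 above the olfactory level on all 9 arrays. KRT5 and KRT14, the paired keratins of the basal layer and both on the list, averaged 12.64 ± 0.16 and 12.43 ± 0.29 (SD, n = 9), at percentiles 99.97 and 99.93. GRHL2 and DSG1 were the dimmest targets, at 3.88 ± 0.04 and 2.66 ± 0.21 (SD, n = 9). DSG1 is a desmosomal cadherin of the upper epidermis. All 16 measured basal epithelial genes were above the olfactory level on every array, and the dimmest of them, EGFR and TRIM29, still averaged 7.25 and 6.86. Of the 26 measured luminal genes 13 passed the same bar, and of all genes 65.6% did. KRT7 and KRT18, keratins of simple epithelia, led at 10.45 ± 0.18 and 10.40 ± 0.43, while EPCAM, an adhesion molecule of most carcinoma cells, and ANKRD30A, a gene typical of breast epithelium, averaged 2.76 ± 0.12 and 2.23 ± 0.19 (SD, n = 9). EPCAM was thus at the level of the olfactory receptors. The luminal factors ranked with the luminal list and below the basal one. Where these signals came from was not tested, and whether the arrays hold RNA of the labelled line was not tested either. In bulk RNA fewer cells of a type and less RNA per cell cannot be told apart.

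**Figure D2:**
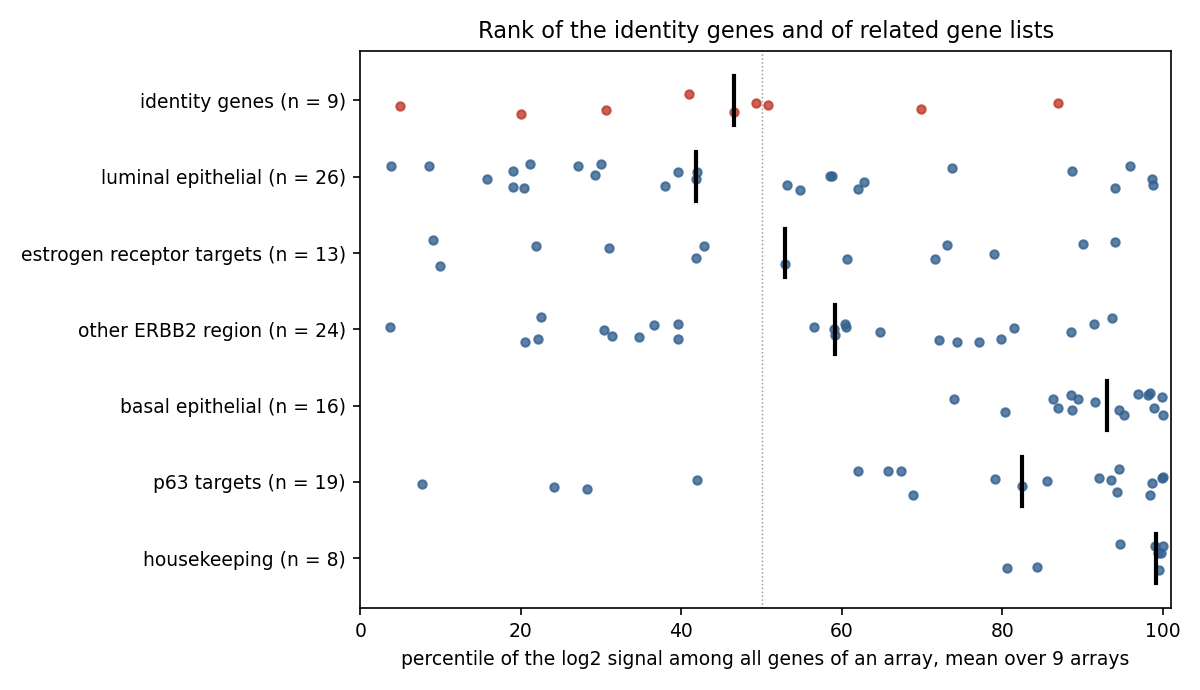
Percentile of the log2 signal among 18417 genes (horizontal axis, mean of 9 arrays) of each gene, grouped by list (rows). Each point is 1 gene, the bar is the median of the list, and the dotted line marks percentile 50. The identity genes have a median percentile of 46.5 and the luminal genes one of 41.9, whereas the basal genes have one of 93.1.

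The 4 neighbours of ERBB2 ranged from the middle to the upper part of the genes. MIEN1, which lies next to ERBB2 and promotes cell migration, was the brightest of the identity genes, with log2 signals of 7.94, 7.85 and 7.74 with TFPIα, 7.94, 7.75 and 7.70 with TFPIβ, and 7.86, 7.83 and 7.71 with empty vector. Its mean percentile was 86.9. The signal was highest in replicate 1 and lowest in replicate 3 of every group, and the replicate number had an adjusted p of 0.354 for MIEN1 in a test with limma over 17482 probe sets, none of which passed 0.05. STARD3, a cholesterol transporter of late endosomes, had 6.53, 6.53 and 6.52 with TFPIα, 6.58, 6.53 and 6.53 with TFPIβ, and 6.53, 6.54 and 6.45 with empty vector, at a mean percentile of 69.8. It hardly varied at all, with an SD of 0.03 over the arrays. That SD was at percentile 0.472 of the 11232 genes that reached a signal of 5, whose median SD was 0.17. The deposited value was identical to the last decimal on 5 of the 9 arrays, and the SD of STARD3 includes those repeats.

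PGAP3 and GRB7 were near the middle. PGAP3, which remodels the lipid of GPI anchors, the kind of anchor that holds TFPIβ, had 5.37, 5.22 and 5.22 with TFPIα, 5.51, 5.42 and 5.25 with TFPIβ, and 5.38, 5.65 and 5.48 with empty vector, at percentile 50.8. GRB7, an adaptor protein that binds the ERBB2 receptor, had 5.30, 5.15 and 5.11 with TFPIα, 5.15, 5.04 and 5.08 with TFPIβ, and 5.15, 5.10 and 5.29 with empty vector, at percentile 46.5. ERBB2 itself lay between them and STARD3, with 5.94, 5.69 and 5.86 with TFPIα, 5.98, 5.88 and 5.79 with TFPIβ, and 5.63, 6.24 and 5.88 with empty vector, at percentile 59.1. Neither ERBB2 nor 3 of its 4 neighbours reached percentile 80 on any array.

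Along the chromosome the stretch from STARD3 to GRB7 did not stand out. Its 7 measured genes had a median log2 signal of 5.39, with means from 4.23 to 7.81 and a median percentile of 50.8. The 20 measured genes that flank it, 10 on each side, had a median of 5.91, with means from 1.60 to 8.71 and a median percentile of 59.7. Copy number was not measured, so these flanking genes are not known to lie outside a copied stretch. The 982 measured genes of chromosome 17 had a median percentile of 54.7. Above the olfactory level on all arrays were 5 of the 7 genes and 15 of the 20 flanking ones, beside 65.6% of all genes. The exceptions within the stretch were TCAP, a protein of muscle sarcomeres, at 4.30, and PNMT, the enzyme that makes adrenaline, at 4.23. In the wider list of 24 measured neighbours RPL19, a ribosomal protein gene, and PSMD3, a proteasome subunit, were the brightest at 8.71 and 8.35, and both lie outside the stretch. IKZF3, a lymphoid transcription factor, and ZPBP2, a sperm protein gene, were the dimmest at 3.66 and 2.20. The ETS motif shown above was in the promoters of RPL19, STARD3, PGAP3, ERBB2 and MIEN1, whose median signal was 6.52, against 5.96 for the 13 genes of the region with a promoter entry and no match. STARD3, PGAP3 and MIEN1 are among the genes after whose signals the motif was chosen, so that this partly restates the choice. The ranges of both sets overlapped, from 5.39 to 8.71 with the motif and from 1.60 to 8.35 without it.

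**Figure D3:**
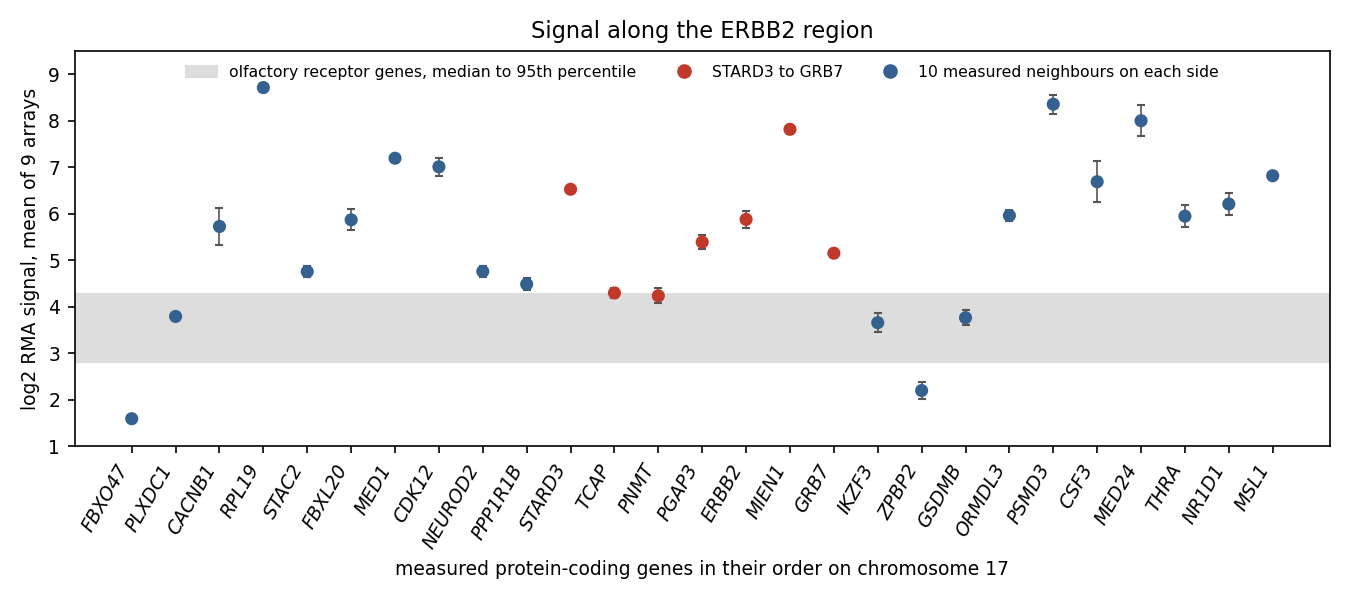
Log2 signal (vertical axis, mean of 9 arrays with an error bar of 1 SD) of the measured protein-coding genes around ERBB2, in their order on chromosome 17 (horizontal axis). Red points are the 7 genes from STARD3 to GRB7 and blue points the 10 measured genes on each side, and the grey band runs from 2.82 to 4.28, as for the olfactory receptors in the plot of single arrays. The red points span 4.23 to 7.81, within the span of the blue ones.

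In the order of their mean signals, which is no order of amounts, the genes ran MIEN1, STARD3, PGAP3, GATA3, GRB7, FOXA1, SPDEF, ESR1 and PGR. PGAP3 was above GATA3 on 7 of 9 arrays and GATA3 above GRB7 on 5 of 9, so that their order was not the same on every array. GRB7 was above FOXA1 on all 9 arrays by 0.32 ± 0.19 (SD, n = 9), although their ranges met. The other neighbours in this order had ranges that did not overlap. Variation over the arrays differed as much as the level. GATA3 had the widest range of those that reached a signal of 5, at 0.96, and its SD was at percentile 79.3 of the 11232 genes that reached that signal, while FOXA1 and PGAP3 were at percentiles 39.1 and 37.7, MIEN1 at 12.6 and GRB7 at 11.1.

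None of the identity genes was called between the groups of the labels. ESR1, PGR and SPDEF stayed under the signal of 5 on all arrays and were not tested, which left 6 genes. Between TFPIα and empty vector, 0 of the 6 passed limma at an adjusted p under 0.05 with a change of at least 2-fold, beside 0.00572% of the 17482 probe sets tested, the single one being that of ATP1B1, a subunit of the sodium and potassium pump. At an unadjusted p under 0.05 it was again 0 of 6, beside 14.2% of all probe sets. GATA3 averaged 5.08 ± 0.22 (SD, n = 3) on the arrays labelled TFPIα and 5.40 ± 0.25 (SD, n = 3) on those labelled empty vector. The log2 difference was -0.32 (SE 0.20, adjusted p = 0.456 by limma). PGAP3 averaged 5.27 ± 0.09 (SD, n = 3) on the arrays labelled TFPIα and 5.50 ± 0.14 (SD, n = 3) on those labelled empty vector. The log2 difference was -0.23 (SE 0.11, adjusted p = 0.363 by limma). PGAP3 was the 1 gene of the 6 whose groups did not overlap, with all 3 TFPIα arrays below all 3 empty vector arrays, and 23.3% of all probe sets tested had groups that did not overlap. The other 4 differed by 0.01 to 0.07.

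Between TFPIβ and empty vector, 0 of the 6 genes were called, beside 0% of all probe sets, and 0 of 6 had an unadjusted p under 0.05, beside 4.72% of all. FOXA1 was among the 6 only because TFPIβ replicate 1 exceeded a signal of 5, so that its values here are a description and carry no weight as a result. It averaged 4.96 ± 0.15 (SD, n = 3) on the arrays labelled TFPIβ and 4.74 ± 0.06 (SD, n = 3) on those labelled empty vector, which differ by 0.22 on the log2 scale (SE 0.11, adjusted p = 1.00 by limma). Without that array, and with no filter, the difference was 0.13 (SE 0.11, adjusted p = 0.943 by limma). The 3 TFPIβ arrays of FOXA1 were above the 3 of empty vector, the groups of the other 5 genes overlapped, and 7.16% of all probe sets tested had groups that did not overlap. PGAP3 had a log2 difference of -0.11 (SE 0.11) and GRB7 one of -0.09 (SE 0.09), and both overlapped. GATA3, STARD3 and MIEN1 had differences of 0.03, 0.04 and -0.00. The 3 empty vector arrays enter both of these comparisons, so that their results are not independent of each other.

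Between TFPIβ and TFPIα, again 0 of the 6 were called, beside 0% of all probe sets, and 0 of 6 had an unadjusted p under 0.05, beside 8.63% of all. GATA3 had the largest difference of the 6. It averaged 5.44 ± 0.34 (SD, n = 3) on the arrays labelled TFPIβ and 5.08 ± 0.22 (SD, n = 3) on those labelled TFPIα, which differ by 0.36 on the log2 scale (SE 0.20, adjusted p = 0.537 by limma). No gene of the 6 had groups that did not overlap, while 13.3% of all probe sets did. FOXA1 had a log2 difference of 0.15 (SE 0.11) and PGAP3 one of 0.12 (SE 0.11), and GRB7, MIEN1 and STARD3 had -0.10, -0.04 and 0.02. FOXA1 again owed its place among the 6 to TFPIβ replicate 1, so its value here carries no weight as a result. Without that array, and with no filter, its difference was 0.066 (SE 0.11). A p-value that misses the threshold does not show equal levels, but the intervals set a limit on the change of signal. Over the 18 differences of the 6 genes the 95% intervals ran from 0.582-fold at the lowest to 1.76-fold at the highest. Both ends were for GATA3, and a 2-fold change of signal lay outside each interval. The brightest olfactory receptor had a signal of 5.31 to 5.55, depending on the array. GATA3, FOXA1, PGAP3 and GRB7 averaged below 5.55, so a 2-fold change of RNA is not excluded for them. An exact permutation test of 3 arrays against 3 cannot go below p = 0.1.

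**Figure D4:**
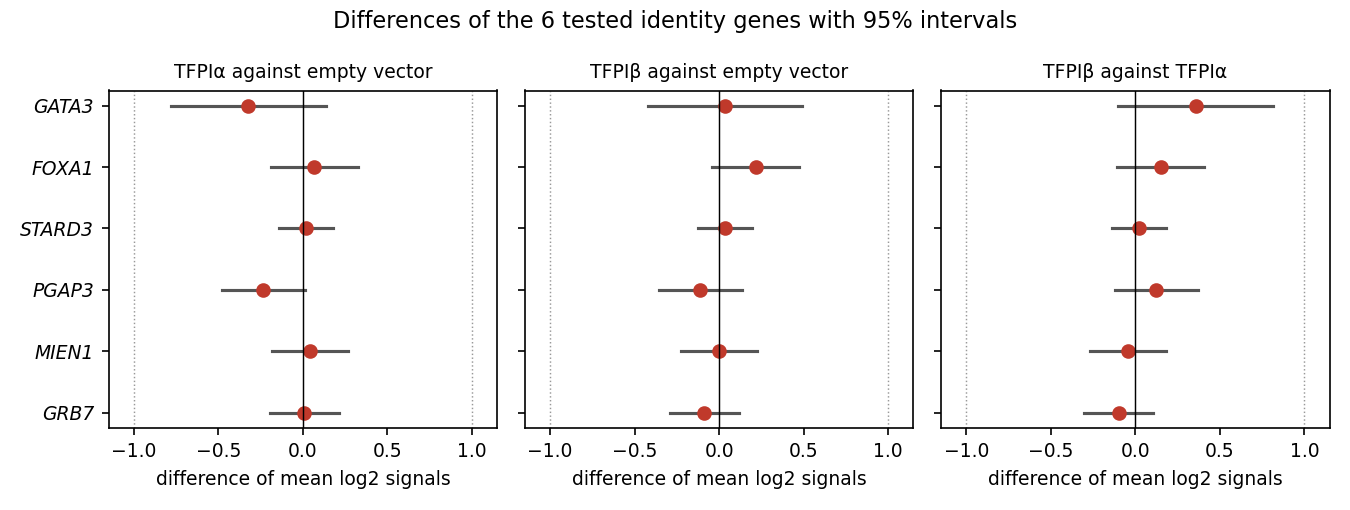
Difference of mean log2 signals (horizontal axis) of the 6 tested identity genes (rows). The panels, from left to right, set TFPIα against empty vector, then TFPIβ against the same arrays, then TFPIβ against TFPIα. Points are the differences, bars their 95% intervals from limma, and dotted lines mark a change of 2-fold in either direction. All intervals include 0 and none reaches a dotted line. FOXA1 passed the filter only through TFPIβ replicate 1, so its differences from TFPIβ are a description.

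The 3 genes under the filter gave small differences as well. ESR1 differed by -0.10 and SPDEF by -0.09 between TFPIα and empty vector, and PGR by 0.02. Between TFPIβ and empty vector the differences of ESR1, PGR and SPDEF were 0.02, -0.01 and -0.03, and between TFPIβ and TFPIα they were 0.12, -0.03 and 0.05. All of these groups overlapped. With limma on all probe sets and no filter, the lowest adjusted p among these 9 differences was 0.709, that of ESR1 between TFPIα and empty vector.

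The longer lists around the identity genes held no called gene either. Between TFPIα and empty vector the 16 tested basal genes had a median log2 difference of -0.30, with 13 below 0, and the 16 tested luminal genes one of -0.23, also with 13 below 0, beside a median of 0.00 over all probe sets. At an unadjusted p under 0.05 the basal list had 1 gene higher and 1 lower, and the luminal list 1 higher and 5 lower, beside 8.59% higher and 5.58% lower over all 17482 probe sets. The p63 targets had a median of -0.19, the targets of the estrogen receptor one of 0.00 and the other genes of the ERBB2 region one of -0.06. With TFPIβ against empty vector the medians of the basal, luminal and p63 lists were -0.03, -0.14 and -0.04, and with TFPIβ against TFPIα they were 0.24, 0.04 and 0.12. The median signal of the basal list overlapped between the groups, with 8.84, 8.21 and 8.52 with TFPIα, 9.22, 9.44 and 8.36 with TFPIβ, and 9.14, 9.57 and 8.75 with empty vector.

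For each tested identity gene, the 3 other genes with the most similar profile over the 9 arrays were found by Pearson correlation among 11231 genes, as a description with no test, since the highest of so many is always high. PGAP3 was most like RSF1, MMP14 and MBD5, with r of 0.98, 0.98 and 0.97. GATA3 was most like OXLD1, ZNF605 and DNAJC4, with r of 0.96, 0.95 and 0.95, and MIEN1 most like APOD, ZFAND2B and AP5S1, with 0.95 for each. STARD3, with its narrow range and 1 value on 5 of the 9 arrays, had MTRFR, NCOA1 and UNC119 at 0.97, 0.96 and 0.95. Its correlations of ranks (Spearman) with these genes were lower, at 0.64, 0.81 and 0.78. GRB7 had DCAF8, GBF1 and IFT172 at 0.92, 0.91 and 0.90, and FOXA1 had the lowest values, with CRYBA2, LINC02897 and NRARP at 0.91, 0.90 and 0.88. None of these 18 genes is another identity gene or lies in the list of ERBB2 neighbours.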

How the data were processed

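Gene expression was measured on 9 arrays, 3 in each of 3 groups. The authors summarised and normalised the scans by RMA, run in Partek software, and deposited log2 signals per probe set. The versions are not given in the sources used here, and the base of the logarithm was taken from the span of the values. Symbols came from the annotation of the array, which gives 1 symbol to 19460 probe sets, several to 1754 and none to 12083. The identity genes and the lists were chosen with earlier results of these data known. The named genes were the identity genes, ERBB2, the 2 brightest and 2 dimmest genes of each of the lists of the report, the 3 genes most like each tested identity gene, and called genes. TFPI, TCAP and PNMT, the motifs and the test of the replicate number were chosen after values had been seen. Some genes of the lists are not reported here.

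The threshold of the methods, a signal of 5 on some array, was applied to the deposited values and kept 17482 of 33297 probe sets. One limma model (version 3.58.1, R 4.3.3, with lmFit, contrasts.fit and eBayes) held the arrays of all groups, and the code was tested on simulated data. A call needed a Benjamini-Hochberg adjusted p under 0.05 over all probe sets kept and a change of at least 2-fold, from the difference of the log2 means. Levels and figures were made with Python 3.11.15, pandas 2.3.3 and matplotlib 3.10.9. The number of arrays limits the precision. Same-numbered arrays of different groups had positively correlated deviations from their group means, with r of 0.137 to 0.594 over 9 pairs. The other 18 pairs had -0.512 to 0.266, so the ranges overlapped. The sample titles give a replicate number and no pairing, and none was assumed in the main model. A replicate block was run as an alternative. Also tried were an adjusted p under 0.10, the one-way model of the methods, only the compared groups, no filter, a filter at 6, centred arrays, a trended and robust prior, mean probe sets, only probe sets with 1 symbol, other levels of detection, ranks among all probe sets, and each array left out.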

Additional observations from a re-analysis of the deposited data

How the results depend on the processing

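No identity gene was called in any of the 3 comparisons under any alternative run, the one-way model of the methods included, and with the replicate block the count was 0 in each as well, with an adjusted p of 0.276 for PGAP3 between TFPIα and empty vector. In the main run only 0.00572%, 0% and 0% of all probe sets were called, so a count of 0 tells little about these genes. The shares of all probe sets called under the alternatives are not reported here. ESR1, PGR and SPDEF were under the filter in every run that had one. The lowest adjusted p under any alternative was 0.223, for GATA3 between TFPIβ and TFPIα without TFPIβ replicate 3. Of the 18 differences 7 changed sign when 1 array was left out. FOXA1 no longer passed the filter without TFPIβ replicate 1. With no filter, an alternative chosen after the data had been seen, its differences without that array were 0.13 between TFPIβ and empty vector and 0.066 between TFPIβ and TFPIα. With a filter at 6 only STARD3 and MIEN1 were tested. With single arrays left out the log2 difference between TFPIα and empty vector ran from -0.014 to 0.15 for FOXA1, from -0.047 to 0.065 for GRB7, from -0.011 to 0.035 for STARD3 and from -0.0067 to 0.093 for MIEN1. Between TFPIβ and empty vector it ran from -0.16 to 0.18 for GATA3 and from -0.073 to 0.047 for MIEN1, and between TFPIβ and TFPIα from -0.12 to 0.0055 for MIEN1. With centred arrays STARD3 had -0.011 between TFPIβ and TFPIα. The cause was not tested.

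The count of 6 genes above the olfactory level fell to 2, STARD3 and MIEN1, when a log2 signal of at least 6 on all arrays was asked, to 4 at a signal of 5 and to 5 at the 99th percentile of the olfactory receptors, and lay between 6 and 7 with single arrays left out, SPDEF being added without TFPIβ replicate 2. The shares of all genes at these other levels are not reported here, so the fall shows nothing particular to the identity genes. Among all probe sets the percentiles of 8 of the 9 genes were higher, with 13.0 for PGR and 30.2 for ESR1 as the largest relative moves, and that of MIEN1 was 86.7. Signals near those of the olfactory receptors, as for SPDEF, ESR1 and PGR, hold little room for a decrease to be seen.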

Other observations

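The deposited signals of several identity genes were identical on several arrays to the last decimal given. STARD3 had 1 value, 6.53, on 5 of the 9 arrays, which were from all 3 groups, PGR had 2.37 on 4, SPDEF 4.26 on 3 and GRB7 5.15 on 3. Over all 33297 probe sets 47.7% had a value shared by at least 2 arrays, and 7.78% had one shared by at least 5. Among the 17482 probe sets that reached a signal of 5 these shares were 30.1% and 2.23%, and among the 15815 that did not they were 67.1% and 13.9%. What made the values repeat was not tested.

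Of the lists around the identity genes, 8 of 14 mesenchymal genes were above the olfactory level on all arrays, a share below the 65.6% of all genes. VIM, an intermediate filament, and DCN, a matrix proteoglycan, were the brightest of them, and PDGFRB and LUM the dimmest. Among 5 measured genes of blood cells CD68, a lysosomal protein that many cell types express, was the only one above the olfactory level on all arrays.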
